A study of Mus musculus with 80 samples.

Results

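The 5 muscarinic acetylcholine receptor genes Chrm1 to Chrm5 and the 5 dopamine receptor genes Drd1a, Drd2, Drd3, Drd4 and Drd5 were taken by symbol from the expression table of single cells of the mouse substantia nigra, and all 10 of 10 were found among its 22815 genes. Drd1a is the symbol the table uses for Drd1. The cells had been picked by hand from the dissociated substantia nigra pars reticulata (SNr), whose GABAergic neurons fire without input, and were sequenced 1 cell per library by SMART-seq2, which copies whole polyadenylated transcripts into cDNA. All cells came from GAD1-EGFP mice labelled C57Bl/6, in which GFP marks cells that use the Gad1 gene, and no animal was treated. Of the 80 cells, 72 were GFP-positive and 8 GFP-negative, at postnatal days 14, 15, 16 and 20. The levels, the shares of cells and the co-detection below rest on the 62 GFP-positive cells with more than 5000 genes detected (9, 20, 24 and 9 cells at days 14, 15, 16 and 20) and on the 4 GFP-negative cells with a Th level above 100 TPM (2 cells each at days 14 and 16), Th being the rate-limiting enzyme of dopamine synthesis. The limit of 5000 genes was not applied to these 4 GFP-negative cells. They had 4478 to 9173 genes detected, the fewest in cell 75 of day 16. The labels name no animal, so cells of a condition count as 1 sample, no test was made across cells, and the SD is the spread from cell to cell.

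Acetylcholine and dopamine both act on G protein-coupled receptors. M1, M3 and M5 (Chrm1, Chrm3, Chrm5) couple to Gq and phospholipase C and usually excite neurons, whereas M2 and M4 (Chrm2, Chrm4) couple to Gi/o and usually inhibit cells or their transmitter release. D1 and D5 (Drd1a, Drd5) raise cyclic AMP through Gs or Golf, and D2, D3 and D4 lower it through Gi/o. In the substantia nigra, D2 is known as the autoreceptor of dopaminergic neurons, and much of the D1 protein of the SNr lies on the terminals of striatal axons, whose transcripts are made in the striatum.

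The files hold no sequence. To show the genes behind the most divided patterns below, the 300 bases from 250 before to 50 after the RefSeq start of 3 receptors are given on the coding strand (GRCm38.p6, credited to RefSeq). They were chosen because Chrm2 was the most often detected member, Drd1a was not detected in any Chrm2 cell, and Drd2 was found in both neuron types. Chrm2 lies at chr6:36387834-36388133 (plus strand), Drd1a at chr13:54055609-54055908 (minus strand) and Drd2 at chr9:49340153-49340452 (plus strand). Capitals mark CCAAT boxes (CCAAT) and GC boxes (GGGCGG) on either strand.
Chrm2: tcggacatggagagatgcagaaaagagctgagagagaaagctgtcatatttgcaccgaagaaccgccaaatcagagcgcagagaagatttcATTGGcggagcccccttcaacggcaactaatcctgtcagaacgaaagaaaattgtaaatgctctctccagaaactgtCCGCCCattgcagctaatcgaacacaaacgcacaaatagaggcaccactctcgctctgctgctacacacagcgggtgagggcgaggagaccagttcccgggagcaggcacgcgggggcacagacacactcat
Drd1a: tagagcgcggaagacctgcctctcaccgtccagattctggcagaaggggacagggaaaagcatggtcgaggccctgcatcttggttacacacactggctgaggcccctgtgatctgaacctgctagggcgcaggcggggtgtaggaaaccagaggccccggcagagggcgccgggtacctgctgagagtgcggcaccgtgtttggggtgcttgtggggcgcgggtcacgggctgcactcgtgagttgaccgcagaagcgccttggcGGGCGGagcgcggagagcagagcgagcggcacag
Drd2: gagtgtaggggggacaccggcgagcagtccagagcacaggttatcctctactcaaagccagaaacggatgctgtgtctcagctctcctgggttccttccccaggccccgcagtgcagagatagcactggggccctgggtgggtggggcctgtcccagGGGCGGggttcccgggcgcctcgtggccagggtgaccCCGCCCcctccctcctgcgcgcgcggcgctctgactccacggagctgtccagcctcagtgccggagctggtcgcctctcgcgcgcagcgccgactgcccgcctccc
The Chrm2 window held 52.7% G and C and 16 CpG pairs, against medians of 52.7% and 7 over 32851 RefSeq promoter windows of mouse genes, with 1 CCAAT box and 1 GC box. The Drd1a window held 65.7% G and C, 23 CpG pairs and 1 GC box, and the Drd2 window 70.3%, 23 CpG pairs and 2 GC boxes. RefSeq gives a second Drd1a window, not printed here, at chr13:54054731-54055030, with 59.3% G and C, 6 CpG pairs and 1 GC box, and the upstream one is shown. A CCAAT box was present in 37.4% and a GC box in 35.7% of all windows. No TATAAA (in 13.6% of windows) and no AAAGGTCA, the NBRE bound by Nurr1 (in 1.51%), was found in the windows of the 9 members with a RefSeq entry. The Drd2 window ends before the start that GENCODE M21 gives for the gene, at position 49340627 of chromosome 9. No entry was matched for Chrm1. These motifs are descriptions of the letters, and binding was not measured.

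Cell identity was checked with marker lists. The 4 GABAergic markers averaged 7.56 ± 0.80 log2(TPM + 1) in the 62 GFP-positive cells (SD, n = 62) and 2.03 ± 1.25 in the 4 Th-positive GFP-negative cells (SD, n = 4), and the 4 dopaminergic markers 0.82 ± 0.86 and 11.64 ± 0.60. Th, by which the 4 cells were chosen, is 1 of the 4 dopaminergic markers. The other 3 averaged 11.21 (Ddc), 12.29 (Slc6a3) and 10.35 (Slc18a2) in these 4 cells. In the GFP-positive cells they averaged 0.40, 0.40 and 2.19. The 4 cells with Th above 100 TPM thus carried other transcripts of dopaminergic neurons too, and are called dopaminergic cells. The striatal projection neuron list averaged 0.49 ± 0.57 in the GFP-positive cells, with Penk detected in 15 cells, Rgs9 in 13 and Ppp1r1b in 8, and Adora2a and Tac1 listed at 0. Depth was estimated from the spacing of low FPKM values, as 151177 to 6237240 fragments (median 1792700) in the 62 cells and 156463 to 3940037 (median 1242201) in the dopaminergic cells.

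Each receptor gene was found in fewer than 50% of the GFP-positive cells, and Chrm2 stood apart from the other 9 members in how often and how highly it was found. At the detection limit of 1 TPM, 9 of the 10 members were found in 1 or more of the 62 GFP-positive cells, but 1 member reached 25% of them (Chrm2) and 0 reached 50%. Over all genes of the table these shares were 75.2%, 46.8% and 35.2%. By mean level the order was Chrm2 (2.65 ± 3.29 log2(TPM + 1), SD, n = 62), Drd1a (0.66 ± 1.64), Drd2 (0.61 ± 1.55), Chrm1 (0.54 ± 0.69), Chrm3 (0.51 ± 1.28), Chrm5 (0.46 ± 1.57), Chrm4 (0.31 ± 0.94), Drd3 (0.17 ± 0.95), Drd5 (0.02 ± 0.14) and Drd4 at 0. The mean of Chrm2 was the highest of the 10 at each of the 4 ages (1.43, 2.91, 3.28 and 1.63 at days 14, 15, 16 and 20). Neighbours from Drd1a to Chrm5 in this order differed by at most 0.07 in the mean, less than the SD of each of these means over the 4 ages (0.20 to 0.46). The median mean level in these 62 cells was 1.58 over the 17265 genes detected in at least 1 of them or of the dopaminergic cells.

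**Figure D1:**
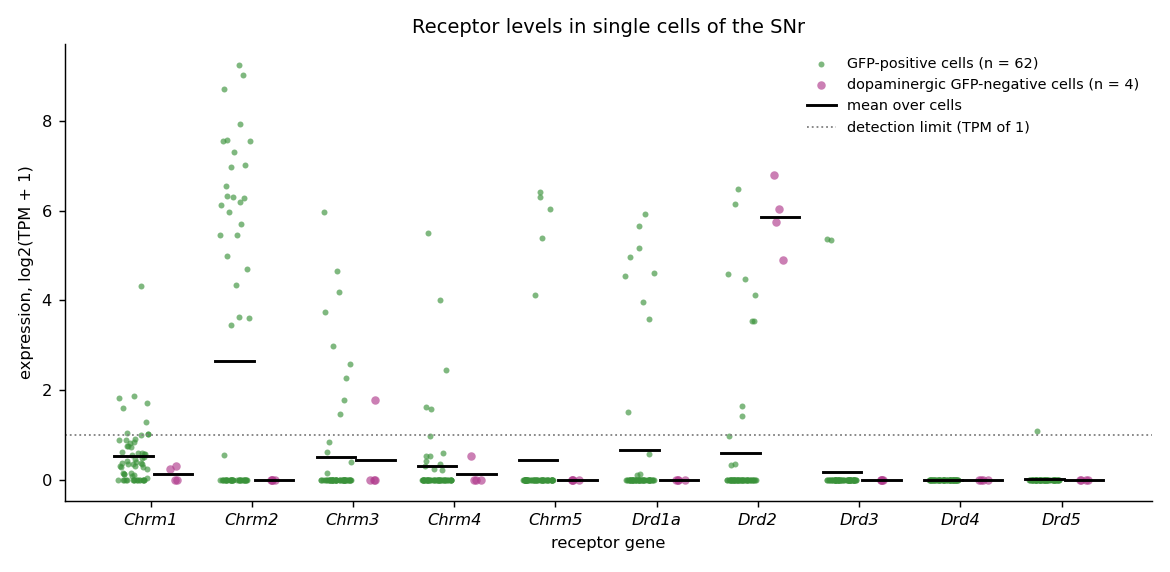
Each point is 1 cell and the y axis is log2(TPM + 1) of the receptor gene on the x axis, with horizontal bars for the mean over the 62 GFP-positive cells (green) or the 4 dopaminergic GFP-negative cells (magenta). Chrm2 is either near 0 or at 3.46 and above in GFP-positive cells, most Chrm1 values lie below the dotted detection limit at a TPM of 1, and all 4 dopaminergic cells lie at 4.89 or above for Drd2.

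The Gi/o-coupled receptor M2 gave the clearest signal. Chrm2 was detected in 26 of 62 GFP-positive cells (41.9%, exact Clopper-Pearson 95% interval 29.5 to 55.2%, which covers counting error only, here and below). In those 26 cells its level ran from 10.0 to 606 TPM (median 77.3), from 6 to 2409 estimated fragments (median 372). A further cell held a trace, cell 6 of day 15 at 0.48 TPM, and in the other 35 cells Chrm2 was listed at 0. No cell lay between 1 and 10 TPM, so the count of 26 was the same at detection limits of 1, 5 and 10 TPM. The highest levels were 606 TPM in cell 53 of day 14, 514 in cell 73 of day 15 and 417 in cell 28 of day 20. The cells with Chrm2 had a median of 7952 genes and 1758710 fragments, and those without it 8274 genes and 1816350 fragments. Across the 62 cells, the level of Chrm2 had a Pearson r of 0.01 with the log10 of depth and of -0.14 with the number of genes detected.

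Chrm4, which encodes the other Gi/o-coupled muscarinic receptor, was rare. It was detected in 5 of 62 cells (8.06%, 2.67 to 17.8%). The 5 values were 2.01 TPM in cell 12, 2.07 in cell 35, 4.45 in cell 53, 15.1 in cell 69 and 44.4 in cell 24. The first pair rested on about 1 fragment each, so 3 of the 5 cells held at least 2 fragments. These fragment numbers are uncertain, because the spacing of low Chrm4 values fits 2558 bases and the annotated transcript has 1440. A further 9 cells had Chrm4 above 0 and below the limit. At least 1 of Chrm2 and Chrm4 was detected in 28 cells (45.2%, 32.5 to 58.3%).

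Among the Gq-coupled receptors, Chrm1 was the most widespread as traces. It was above 0 in 46 of 62 cells, but the level passed 1 TPM in 10 (16.1%, 8.02 to 27.7%), and 18 of the 46 held exactly 1 fragment. The detected values ran from 1.01 to 19.0 TPM with a median of 1.74, and 1 cell passed 10 TPM (cell 73 of day 15, 98.0 fragments). Of 49 cells in the series with up to 10 fragments of Chrm1, 49 lay within 0.1 of a whole number of fragments. The lowest value shared by cells was taken as 1 fragment, so the cells at 1 fragment fit by construction. The transcript of Chrm1 is long (6271 bases in GENCODE M21), which lowers the TPM of 1 fragment. Low Chrm1 values thus stood for few fragments. The 10 cells past 1 TPM had a median depth of 769005 fragments and the others of 1816350, and 8 of the 10 held at least 2 fragments of Chrm1.

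Chrm3 was detected in 9 of 62 cells (14.5%, 6.86 to 25.8%), at 1.79 to 62.02 TPM (median 6.94) and 1.99 to 58.9 fragments. The highest value, in cell 29 of day 20, came from the GFP-positive cell with the fewest fragments of the 62 (151177) and rested on 13.0 fragments. The fragments of Chrm3 are uncertain, because the spacing of its low values fits 2958 bases and the annotated transcript has 4336. Chrm5 was detected in 5 of 62 cells (8.06%, 2.67 to 17.8%) and was listed at 0 in the other 57. The values of Chrm5 were 16.3 TPM in cell 72, 40.8 in cell 24, 64.5 in cell 12, 77.8 in cell 53 and 83.8 in cell 73. Where present, Chrm5 was therefore well above the limit, with 9.31 to 100.3 estimated fragments from the annotated length. At least 1 Gq-coupled receptor gene was detected in 22 cells (35.5%, 23.7 to 48.7%), and 11 of these also held Chrm2 or Chrm4.

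**Figure D2:**
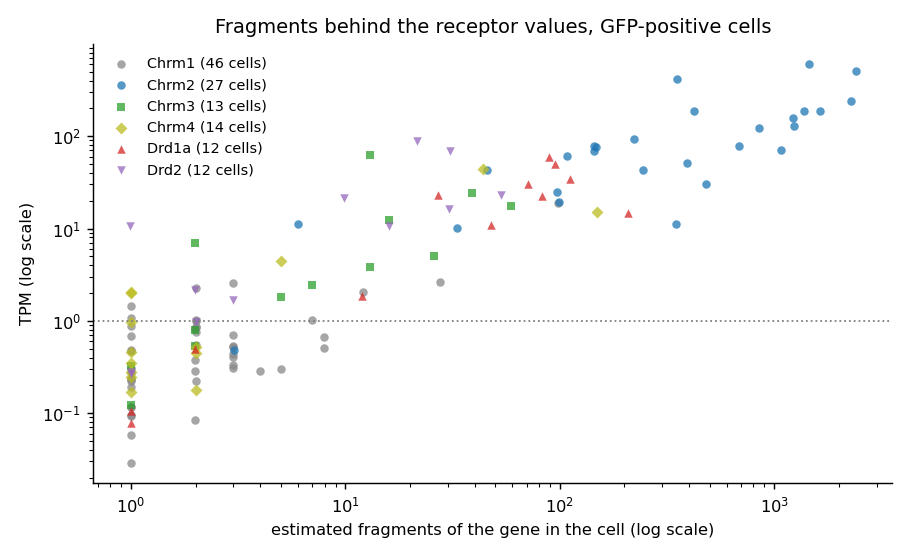
TPM (y axis, log scale) against the estimated number of fragments (x axis, log scale) for 6 receptor genes in the GFP-positive cells in which each was above 0, 1 point per cell, with the detection limit of 1 TPM dotted. Chrm2 points lie to the right, at a median of 372 fragments where detected, while 18 of the 46 Chrm1 cells sit at 1 fragment.

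Of the D1-like receptors, Drd1a was found in few cells at moderate levels. It was detected in 9 of 62 GFP-positive cells (14.5%, 6.86 to 25.8%) and was above 0 in 12. The levels were 1.87 TPM in cell 10 and 59.7 in cell 64 of day 15, 11.0 in cell 43 and 22.4 in cell 40 of day 14, and 34.7 in cell 37 and 49.6 in cell 33 of day 20. At day 16 they were 14.6 in cell 89, 23.2 in cell 81 and 30.4 in cell 15. All 9 cells thus held 12.0 or more fragments (up to 209), and 8 of the 9 were above 10 TPM. Drd5 was detected in 1 cell, cell 91 of day 16, at 1.14 TPM and about 1 fragment.

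Of the D2-like receptors, Drd2 was detected in as many GFP-positive cells as Drd1a, 9 of 62 (14.5%, 6.86 to 25.8%). The Drd2 levels were 1.69 TPM in cell 76, 2.14 in cell 14, 23.0 in cell 23 and 69.4 in cell 91 of day 16, and 10.7 in cell 6, 16.3 in cell 7 and 21.4 in cell 55 of day 15. At day 20 they were 10.6 in cell 29 and 87.6 in cell 35, and at day 14 Drd2 was listed at 0 in all 9 cells, which allows a share of up to 33.3%. The value of cell 29 rested on about 1 fragment in a shallow library. The fragments of Drd2 are uncertain, because the spacing of its low values fits a transcript of 1313 bases and the annotated transcript has 2547. Drd3 was detected in 2 cells, at 39.4 TPM in cell 94 of day 16 and 40.5 in cell 28 of day 20, and was listed at 0 in the other 60. The value of Drd4 was 0 in all 62 cells, which allows a share of up to 4.84%.

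Transcripts of dopaminergic neurons were looked for in the same cells, since the dopaminergic cells described below carried Drd2. At least 1 of Th, Ddc and Slc6a3 was detected in 12 of the 62 GFP-positive cells, and these included 2 of the 9 Drd2 cells, 2 of the 9 Drd1a cells and 5 of the 26 Chrm2 cells. The remaining dopaminergic marker, the vesicular monoamine transporter Slc18a2, was more frequent, in 30 of the 62 cells, among them 3 of the 9 Drd2 cells, 4 of the 9 Drd1a cells and 13 of the 26 Chrm2 cells. Of the Drd2 cells, cell 7 had 26.6 TPM of Th and cell 76 had 7.28, while Th was listed at 0 in the other 7. The oligodendrocyte list, which averaged 3.30 ± 1.61 over the 62 cells, had an r of -0.17 with Chrm2 and of -0.08 with Drd2, and the striatal projection neuron list an r of 0.14 with Drd1a.

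The members were then followed cell by cell. A GFP-positive cell held on average 0.887 ± 0.907 muscarinic and 0.339 ± 0.510 dopamine receptor genes (SD, n = 62). At least 1 muscarinic gene was detected in 39 cells (62.9%, 49.7 to 74.8%), and at least 1 dopamine receptor gene in 20 (32.3%, 20.9 to 45.3%). Both families were detected in 12 cells (19.4%, 10.4 to 31.4%), muscarinic genes without dopamine receptor genes in 27, dopamine receptor genes without muscarinic genes in 8, and no member in 15 (24.2%, 14.2 to 36.7%). Exactly 1 member was detected in 26 cells, 2 members in 14, 3 in 6 and 4 in 1, cell 12 of day 16, which held Chrm1, Chrm2, Chrm4 and Chrm5. The most frequent contents were Chrm2 alone in 10 cells, Drd1a alone in 7, Chrm1 alone in 4 and Chrm2 with Drd2 in 4.

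Of the 45 pairs of members, 36 had both genes detected somewhere among the GFP-positive cells, and 15 of these were found together in at least 1 cell. The pairs described next were picked out after their values were seen. Chrm2 and Drd1a were not found together: 0 of 9 Drd1a cells held Chrm2, which allows a share of up to 33.3% (exact interval 0 to 33.6%), where Chrm2 was found in 41.9% of all 62 cells. At any fragment, 1 cell held both, cell 19 with 0.11 TPM of Drd1a. Drd1a and Drd2 were detected together in 0 cells at 1 TPM, which allows up to 33.3% of the 9 cells of either gene and so includes the 14.5% of all cells that held each. At any fragment both were in the same cell 19, which held 0.26 TPM of Drd2. In cell 19, 1 gene held 76.0% of the FPKM, which lowers the TPM of its other genes. With genes over 25% of a cell left out of the sum, Drd2 was detected in 16.1% of the 62 cells. By contrast, 6 of 9 Drd2 cells held Chrm2 (66.7%, 29.9 to 92.5%), an interval that includes the share over all cells, and these 6 were 23.1% of the 26 Chrm2 cells. All 5 Chrm5 cells held Chrm2 (100%, 47.8 to 100%), at 42.6 TPM of Chrm2 in cell 12, 68.3 in cell 24, 606 in cell 53, 514 in cell 73 and 189 in cell 72. Chrm4 was detected in 3 of these 5 cells.

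**Figure D3:**
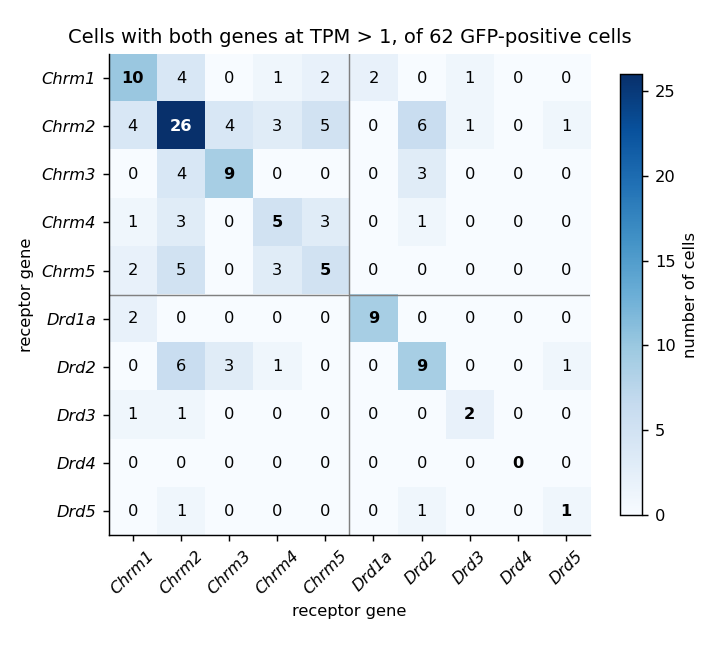
Number of the 62 GFP-positive cells with both genes of a pair above 1 TPM, with each gene's own number of cells in bold on the diagonal and grey lines between the muscarinic and dopamine receptor genes. The row of Chrm2 shows 5 cells with Chrm5, 6 with Drd2 and 0 with Drd1a.

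Of the 11 D2-like cells, 8 also held Chrm2 or Chrm4 and 4 a Gq-coupled receptor gene. Over all 62 cells these were found in 45.2% and 35.5%. The 10 D1-like cells shared 1 cell with Chrm2 or Chrm4, cell 91 with its trace of Drd5, and 2 cells with a Gq-coupled gene, both through Chrm1 (cell 37 at 2.04 TPM and cell 40 at 1.03). Chrm3 and Drd2 were found together in 3 cells, cells 6, 23 and 29. The 2 Drd3 cells differed in their contents, since cell 28 also held Chrm1 and Chrm2 and cell 94 no other member.

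The ages give the comparison between animals, as far as the labels allow. Chrm2 was detected in 2 of 9 cells at day 14 (22.2%, 2.81 to 60.0%), 9 of 20 at day 15 (45.0%, 23.1 to 68.5%), 13 of 24 at day 16 (54.2%, 32.8 to 74.4%) and 2 of 9 at day 20 (22.2%, 2.81 to 60.0%), and all these intervals overlap. Where detected, its median level was 308.6 TPM at day 14, 79.1 at day 15, 71.5 at day 16 and 239.0 at day 20, and the ranges of the ages overlapped. Drd1a was detected in 2, 2, 3 and 2 cells and Drd2 in 0, 3, 4 and 2 cells at days 14, 15, 16 and 20. Chrm3 was detected in 1, 2, 5 and 1 cells. Chrm1 was detected in 5 of 9 cells at day 20 (55.6%, 21.2 to 86.3%) and in 1 of 24 at day 16 (4.17%, 0.11 to 21.1%), 2 intervals that come within 0.1 points of each other without overlap. The median depth was 562507 fragments at day 20 and 1934780 at day 16, and Chrm1 was above 0 in 7 of 9 and 17 of 24 cells. The part of depth in the difference of Chrm1 between these ages was not tested beyond these values. Both families were detected in 1 of 9, 3 of 20, 4 of 24 and 4 of 9 cells, with overlapping intervals.

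**Figure D4:**
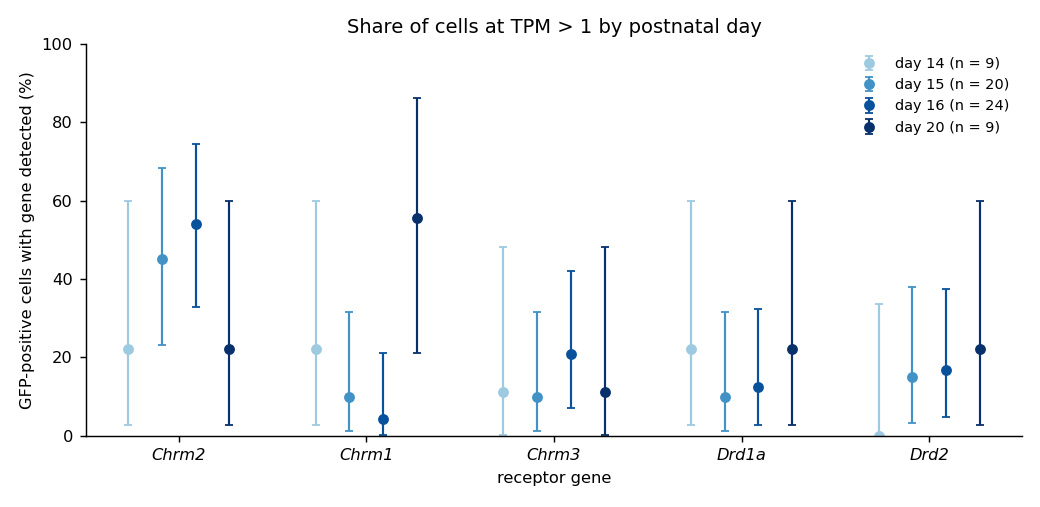
Percent of GFP-positive cells with the gene above 1 TPM (points, y axis) for 5 receptor genes at 4 postnatal days, with exact 95% intervals as bars. The intervals of each gene overlap across ages except for Chrm1 at day 20 (55.6%) and day 16 (4.17%), whose intervals end at 21.2% and 21.1%.

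**Figure D5:**
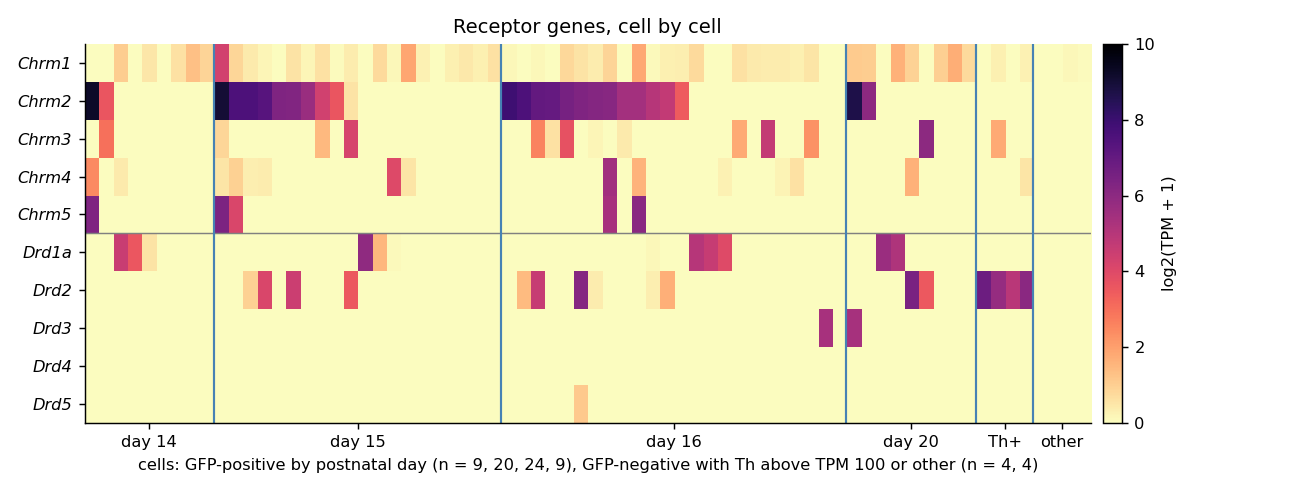
Heat map of log2(TPM + 1) with 1 column per cell and 1 row per receptor gene. GFP-positive cells are grouped by postnatal day and ordered by Chrm2, and the last columns are the 4 dopaminergic (Th+) and the 4 other GFP-negative cells. Chrm2 and Drd1a above 1 TPM occupy different cells, Drd2 fills all 4 dopaminergic columns, and the other GFP-negative cells are near 0 for each member.

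Among the 10 members, the dopaminergic GFP-negative cells differed most from the GFP-positive cells in the mean level of Drd2. Drd2 was detected in 4 of 4 (100%, 39.8 to 100%), at 109 TPM in cell 44 and 52.9 in cell 48 of day 14 and at 28.6 in cell 75 and 64.0 in cell 86 of day 16. The lowest of these 4 values was exceeded by 2 of the 62 GFP-positive cells, cells 35 and 91. The mean level was 5.86 ± 0.78 log2(TPM + 1) (SD, n = 4) against 0.61 ± 1.55 (SD, n = 62), a difference of 5.26, and within ages it was 6.27 at day 14 and 4.85 at day 16. Of the 10 members, 1 was thus present in all 4 dopaminergic cells and 2 in at least 1, where 11.7% and 49.5% of all genes were.

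Chrm2 was listed at 0 in all 4 dopaminergic cells, a difference in mean level of -2.65 log2(TPM + 1) from the GFP-positive cells. A count of 0 of 4 allows a share of up to 75.0% by 3 counts and of 60.2% by the exact interval, so a share like the 41.9% of the GFP-positive cells was within what 4 cells allow. Chrm3 was detected in 1 dopaminergic cell, cell 48, at 2.42 TPM and about 5 fragments. Chrm1 was present as traces of 0.24 TPM in cell 48 and 0.19 in cell 86, and Chrm4 at 0.46 TPM in cell 86. Chrm5, Drd1a, Drd3, Drd4 and Drd5 were listed at 0 in all 4 cells.

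With a difference of at least 1 in mean log2(TPM + 1) as the call, 1 of the 10 members was higher in dopaminergic cells (Drd2) and 1 lower (Chrm2), where 10.1% of the 17265 genes detected in these cells were higher and 19.2% lower. Ordered by this difference, Drd2 was in place 29 from the top and Chrm2 in place 16883. At a difference of at least 2 the same members were called, against 2.83% and 5.43% of genes. Over the 12298 genes detected in at least 25% of either kind of cell, 14.2% were higher and 26.7% lower by 1, and 3.98% and 7.62% by 2. Over all 22815 genes the shares were 7.64% and 14.5% by 1, and 2.14% and 4.11% by 2. The median difference was -0.40 over the muscarinic genes, -0.02 over the dopamine receptor genes and -0.16 over the 17265 genes detected in these cells. The oligodendrocyte list averaged 3.81 ± 0.94 in the dopaminergic cells and 3.30 ± 1.61 in the GFP-positive cells, and the astrocyte list 3.10 ± 0.87 and 3.18 ± 1.31.

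The 4 GFP-negative cells without high Th held no member above 1 TPM. Their oligodendrocyte list averaged 9.59 ± 4.84 (SD, n = 4), with 12.82, 13.52 and 9.08 in cells 68, 70 and 77 and 2.94 in cell 47, whose neuron list was at 5.38. Chrm1 was above 0 in 2 of them, with 1.00 and 2.00 fragments, and the other 9 members were listed at 0.

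The enzymes and transporters of the transmitters were read beside the receptors. Ache, which breaks down acetylcholine, averaged 7.67 ± 1.99 log2(TPM + 1) in GFP-positive cells (detected in 60 of 62) and 7.66 in dopaminergic cells. Chat, which makes acetylcholine, was detected in 1 of 62 GFP-positive cells, and the cholinergic transporters Slc18a3 and Slc5a7 in 0. Chat differed by 1.16 in dopaminergic cells, where it was detected in 1 of 4 cells (15.4 TPM). Of the 7 genes of dopamine handling, 5 were higher in dopaminergic cells. Th was used to choose these cells, and Ddc (10.81), Slc6a3 (11.89) and Slc18a2 (8.16) are markers of the same identity. Maoa, a monoamine oxidase, differed by 2.70.

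The G proteins and enzymes downstream of the receptors were counted in the same cells. In the Gi/o arm, used by M2, M4 and the D2-like receptors, 4 of 5 genes were present in at least 50% of the GFP-positive cells, led by Gnao1 (Go alpha, 7.04 ± 0.81, in 62 of 62). In the Gs/Golf arm of the D1-like receptors this held for 12 of 15 genes, with Gnas at 10.34 ± 1.02, the kinase subunits Prkacb at 7.75 ± 1.21 and Prkaca at 7.50 ± 0.83, and Gnal (Golf alpha) at 5.52 ± 1.18. In the Gq arm it held for 5 of 13 genes, among them Gna11 at 5.83 ± 1.75, Gnaq at 5.66 ± 1.10, Prkcb at 4.52 ± 1.19 and the phospholipase Plcb4 at 4.37 ± 1.87. Over the genes detected in at least 1 of the GFP-positive or dopaminergic cells it held for 8027 of 17265. Among the regulators it held for 10 of 13, led by Rgs10 (7.58 ± 2.69), Rgs4 (5.89 ± 2.50), Rgs8 (5.20 ± 1.69) and Rgs2 (4.19 ± 2.24), which speed the shut-off of G proteins.

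In the dopaminergic cells, parts of these arms differed by at least 1. In the Gq arm, 2 of 13 genes were higher, Prkca by 4.29 and Plcb4 by 1.96, and 2 lower, Prkcb (-1.56) and Plcb1 (-1.20). In the Gi/o arm Gnai2 was higher by 1.15 and Gnaz lower, just past a difference of 1. In the Gs/Golf arm 0 of 15 were higher and 4 lower, the adenylyl cyclases Adcy8 (-2.86), Adcy9 (-1.59) and Adcy7 (-1.03) and Gnal (-1.68). Of the regulators, 1 of 13 was higher, Rgs2 by 1.83, and 4 lower, Rgs10 (-6.26), Rgs8 (-3.69), Arrb2 (-1.09) and Grk4 (-1.05). These counts stand beside the 10.1% higher and 19.2% lower among the 17265 genes detected in at least 1 of the GFP-positive or dopaminergic cells. Among the 12298 genes detected in at least 25% of either kind of cell, 14.2% were higher and 26.7% lower.

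The genes whose levels went most like those of a member could be given for Chrm2, the member found in at least 25% of the cells. Among 10679 genes, the highest Pearson r over the 62 cells were 0.70 for Cntn4 (Spearman's rho 0.69), 0.67 for Synpr (rho 0.70) and 0.67 for Nell1 (rho 0.66), and the median r was -0.04. Cntn4, a contactin of the cell surface, was detected in 19 cells, of which 17 were Chrm2 cells. Synpr, synaptoporin of synaptic vesicles, was detected in 38 cells, 23 of them with Chrm2, and Nell1, a secreted protein, in 32 cells, 21 of them with Chrm2. Within ages, r was 0.91, 0.78, 0.60 and 0.66 for Cntn4, 0.85, 0.68, 0.57 and 0.66 for Synpr and 0.68, 0.93, 0.63 and 0.46 for Nell1 at days 14, 15, 16 and 20. The 3 genes were picked by r over these same cells, so the values within ages are not independent of that choice. At days 14 and 20, Chrm2 was detected in 2 of 9 cells each, so r there rests largely on 2 cells. Cells of 1 age can share an animal and its depth, so these values are descriptions. In the dopaminergic cells, where Chrm2 was listed at 0, Cntn4 was detected in 3 of 4 cells and averaged 5.24, against 1.77 in the GFP-positive cells. Synpr and Nell1 were each detected in 1 of the 4 and averaged 1.19 and 0.35, against 5.26 and 3.35.

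Genes that overlap a member could add reads to it, since the library does not mark strand. By GENCODE M21, Chrm2 overlaps 9330158H04Rik on the opposite strand and Mir490, Chrm3 overlaps 6 other annotated genes, 2 of them on the opposite strand, and Chrm1, Drd3 and Drd5 overlap 1 each. No other gene overlaps the GENCODE M21 spans of Chrm4, Chrm5, Drd1a, Drd2 or Drd4. The annotated Chrm4 transcript has 1440 bases where its low values fit 2558, and overlap with a longer Chrm4 was not checked.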

How the data were processed

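Per the labels and the study's methods, the authors sequenced read pairs of 25 bases from single cells, aligned them to GRCm38 (mm10) with TopHat2 2.0.10 and quantified genes with Cufflinks 2.2.1 and Cuffnorm (submitters' processing notes), keeping cells with 50% of reads aligned and at least 100000 aligned pairs. The gene annotation is not given in the sources used here. The authors deposited FPKM, fragments per kilobase of transcript and per 1000000 mapped fragments, for 22815 genes and 80 cells.

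FPKM were divided by the cell's sum and multiplied by 1000000 (TPM). Levels are log2(TPM + 1) with a pseudocount of 1, detection is TPM above 1, and cells of a class were compared by differences of means. Python 3.11.15, numpy 2.4.6, pandas 2.3.3 and scipy 1.17.1 were used. Depth was estimated from the spacing of low FPKM times length minus 200 bases over 1083 single-transcript genes over 2500 bases. In the median cell, 70.8% of low values lay within 0.05 steps of a whole number. Fragments of a member come from its lowest shared value, or from the annotated length for Chrm2, Chrm5, Drd3, Drd4 and Drd5. The depth estimate, the search for genes most like a member and the difference of means were tested on simulated data. The fragment numbers of a member were not. Of the symbols, 21550 were found in GENCODE M21.

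The named genes are the 10 members, up to 4 genes per pathway list with the highest means plus those past a difference of 1, marker lists, and the 3 genes most like each member found in at least 25% of cells. Some results this rule selects are not reported here. The members and lists were chosen with earlier results of these data known. No labels name the animals, so no p-value was computed. Alternatives changed the cells, the unit, the detection limit, the pseudocount and the Th limit.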

Additional observations from a re-analysis of the deposited data

Results flagged for a closer look

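In groups of 4 to 10 cells, and among the 4 age means, 26 groups of a member's values were examined for a highest or lowest value far from its neighbours by Dixon's criterion, which marks about 1 in 20 groups by chance when values are normal. In 11 of them a value stood apart, and in most the others were at or near 0, as the sparse detection of these genes gives. Cell 53 of day 14 stood apart for 3 members, with log2(TPM + 1) of 9.25 for Chrm2, 2.45 for Chrm4 and 6.30 for Chrm5. Chrm3 stood apart in cell 46 of day 14 (2.99), in cell 29 of day 20 (5.98) and in dopaminergic cell 48 (1.77). Chrm4 stood apart in cell 35 of day 20 (1.62) and in dopaminergic cell 86 (0.54), and Drd3 in cell 28 of day 20 (5.37). Among the age means, that of Chrm4 was low at day 20 (0.18), and that of Drd5 was 0.05 at day 16 and 0 at the other ages.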

How the results depend on the processing

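The number of members higher in dopaminergic cells (1) was the same under every alternative run, including each of the 4 dopaminergic cells left out in turn (1 to 1), Th limits of 10 and 1000 TPM, and ages 14 and 16 alone. The number lower (1) became 3 with a pseudocount of 0.1, when Chrm1 (-1.11) and Drd1a (-1.18) joined Chrm2. The muscarinic genes per cell, 0.887, moved to 0.710 with FPKM in place of TPM, to 1.69 and 1.61 at detection limits of 0 and 0.1 TPM, to 0.645 and 0.613 at limits of 5 and 10 TPM, to 0.742 when at least 5 fragments were asked for, an alternative chosen after seeing the data, and to 1.00 at day 20 alone. The dopamine receptor genes per cell, 0.339, moved to 0.556 at day 20 alone. The share of cells with both families, 19.4%, moved to 44.4% at day 20 alone and to 32.3% at a limit of 0 TPM. Chrm1 was detected in 3.23% of cells by FPKM and in 74.2% at a limit of 0. Of 150 member differences under alternatives, 148 kept their side of a difference of 1 and 0 were reversed, and of 150 shares of cells 123 stayed within the interval of the share reported. The 4 GFP-positive cells in which 1 gene held over 25% of the FPKM were left out after seeing the data: Chrm2 was then found in 39.7% of cells, and no summary value moved beyond the spread used. No paired analysis was possible because the replicate numbers were given in accession order and no label ties cells of different groups to an animal. With 4 dopaminergic cells and estimated depths from 151177 fragments, a rare or low receptor could be missed, and TPM above 1 stands for different numbers of fragments in different cells.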

Other observations

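The 10 GFP-positive cells with 5000 or fewer genes had a median of 304233 estimated fragments. Not all of them were GABAergic by transcript. Gad1 was listed at 0 in cells 18, 38 and 56 and was at 1.59 TPM in cell 57 and 2.66 in cell 84. The lowest Gad1 level in the 62 cells used above was 34.2 TPM. Cell 18 also held 553 TPM of Th. Chrm1, Chrm3 and Chrm4 were each detected in 1 of these 10 cells, Chrm2 in 0 of 10, which allows a share of up to 30.0%, and no dopamine receptor gene in any. Over all 72 GFP-positive cells, Chrm2 was thus detected in 26 (36.1%, exact interval 25.1 to 48.3%).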
